A study of Mus musculus with 13 samples.

Results

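The nuclear genes of oxidative phosphorylation were examined in DRIP-seq peak lists from N2a cells, a mouse neuroblastoma line. DRIP-seq sequences genomic DNA that was pulled down with the S9.6 antibody because it lies in a hybrid with RNA. Members were all protein-coding genes of the mm9 annotation (GENCODE vM1) outside the mitochondrial chromosome whose symbol begins with Nduf, Cox4 to Cox8, Atp5 or Uqcr, or is Sdha, Sdhb, Sdhc or Sdhd. This rule took 92 genes of 22367. The 92 genes carry 91 distinct symbols, because 2 overlapping gene models are both named Ndufb8 (ENSMUSG00000025204.4 and ENSMUSG00000091471.1). The symbols also take in genes that are not plain respiratory subunits. Among these are 4 assembly factors of complex I, Ndufaf1 to Ndufaf4. Cox4nb encodes a protein of the endoplasmic reticulum membrane complex, Atp5l-ps1 carries a pseudogene name, and Atp5s and Atp5sl are relatives of a coupling factor of ATP synthase.

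Cells were transfected with a scramble siRNA (siScramble), with siRNA against DDX1, a DEAD-box RNA helicase (siDDX1), or with siRNA against EXOSC3, a cap subunit of the RNA exosome (siEXOSC3). Each group had 3 untreated libraries and 1 library whose DNA was digested with RNase H for 6 h, an enzyme that degrades the RNA of such hybrids. All cells received Lipofectamine and a siRNA, all DNA was cut with the same 5 restriction enzymes (XbaI, SspI, HindIII, EcoRI and BsrGI), and knockdown was transient in bulk cultures. The lists hold no measure of DDX1 or EXOSC3, so the knockdown could not be checked in them. The study reported substantial depletion of both proteins by immunoblot. In 12 of 12 lists the siRNA in the peak names differed from the siRNA in the title. The names inside read siDDX1 where the title reads siScramble, siEXOSC3 where it reads siDDX1, and siScramble where it reads siEXOSC3. Groups below follow the titles and are called "labelled". Under the peak names, siDDX1 minus siScramble would read siEXOSC3 minus siDDX1, siEXOSC3 minus siScramble would read siScramble minus siDDX1, and siEXOSC3 minus siDDX1 would read siScramble minus siEXOSC3, while a test over the 3 groups keeps its value.

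Oxidative phosphorylation is carried out in the inner mitochondrial membrane. Complex I (NADH dehydrogenase, most of the Nduf genes) and complex II (succinate dehydrogenase, the Sdh genes) feed electrons to ubiquinone. Complex III (the Uqcr genes) passes them to cytochrome c, and complex IV (cytochrome c oxidase, most of the Cox genes) passes them to oxygen. Complex V (ATP synthase, most of the Atp5 genes) makes ATP from the proton gradient. Most subunits are encoded in the nucleus, and the factors NRF1, GABP, YY1 and ERRα are known to act at many of their promoters. The genes are mostly short, while R-loops, in which nascent RNA pairs with its template, are known around transcription starts and ends.

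The untreated libraries held 23882 to 42571 peaks each and the RNase H libraries 3811 to 8034. Read totals were not used here. Of 16 neural and neuroblastoma markers, 6 had a peak in 9 of 9 untreated libraries, among them Phox2a and Hand2, while Stmn2, Dbh and Th were among those with none. Of 13 markers of other cell types, 10 had no peak in any untreated library and 1, the macrophage marker Cd68, had a peak in all 9. A peak is a call of a hybrid and not a level of RNA, and in a bulk sample fewer cells with a hybrid and less hybrid per cell cannot be told apart.

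The nuclear oxidative phosphorylation genes were covered by peaks more often than protein-coding genes at large. A gene was counted when a peak covered at least 1 base of its window, which is the gene extended by 1 kb on each side. The share of the 92 genes with a peak was 71.7% ± 7.09 (SD, n = 9 untreated libraries), between 60.9% and 80.4%, against 38.5% ± 4.04 of all protein-coding genes, between 32.3% and 43.1%. The lowest share of members in any untreated library lay above the highest share of all genes. A peak in 9 of 9 untreated libraries was found over 48 members (52.2%) and over 26.2% of all genes. No peak in any was found over 12 members (13%) and over 50.1% of all genes. The other 32 members had a peak in 1 to 8 libraries. The members were chosen by name, so these shares describe the list, and no test of the list was made.

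**Figure D1:**
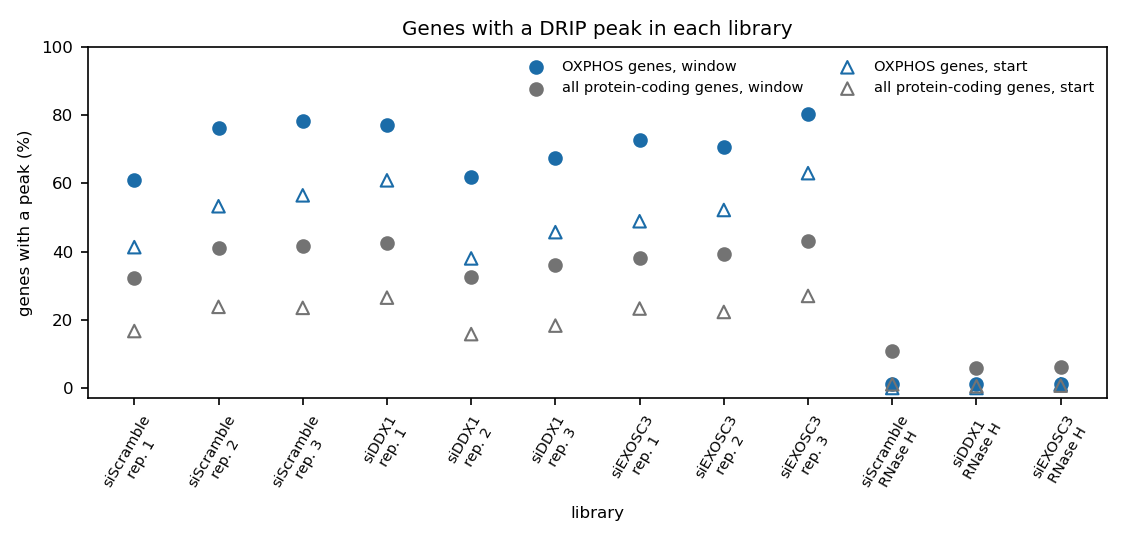
Percent of the 92 oxidative phosphorylation (OXPHOS) genes (blue) and of all 22367 protein-coding genes (grey) with a peak in each of the 12 libraries, anywhere in the gene window (filled circles) or within 1 kb of the annotated start (open triangles). In every untreated library the OXPHOS genes lie above all genes on both measures, and in the RNase H libraries 1.09% of them have a peak.

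The share of genes covered in all 9 untreated libraries was 75.0% in complexes II and V, 51.3% in complex I, 44.4% in complex IV and 25.0% in complex III. Over all genes it was 26.2%, so complex III lay near that share. With a peak in at least 5 libraries, complex III reached 75.0% and all genes 38.8%. Of the 16 ATP synthase genes, 12 had a peak in all 9 untreated libraries, and 1, Atp5l-ps1, had none. Of the 4 succinate dehydrogenase genes 3 were covered in all 9, with Sdhc covered in 6. Complex I had 20 of 39 genes in all 9 and 6 in none, complex IV 8 of 18 in all 9 and 5 in none, and complex III 2 of 8 in all 9 and 0 in none. Of the 4 Ndufaf genes, which encode assembly factors of complex I, 1 was covered in all 9 (25.0%), likewise near the share of all genes. The median over genes of the covered length was 3276 bases in complex V, 1019 in complex I, 796 in complex IV and 683 in complex III, where the value of each gene is its mean over the 9 untreated libraries. These lengths are set within windows whose median gene length was 7.34, 8.37, 3.98 and 4.91 kb, respectively. Over all genes the median covered length was 0 bases, at a median gene length of 15.4 kb. Genes were assigned to complexes by symbol alone, and the complex in which each protein sits was not checked. With 4 to 39 genes a complex, the differences between complexes are a description.

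**Figure D2:**
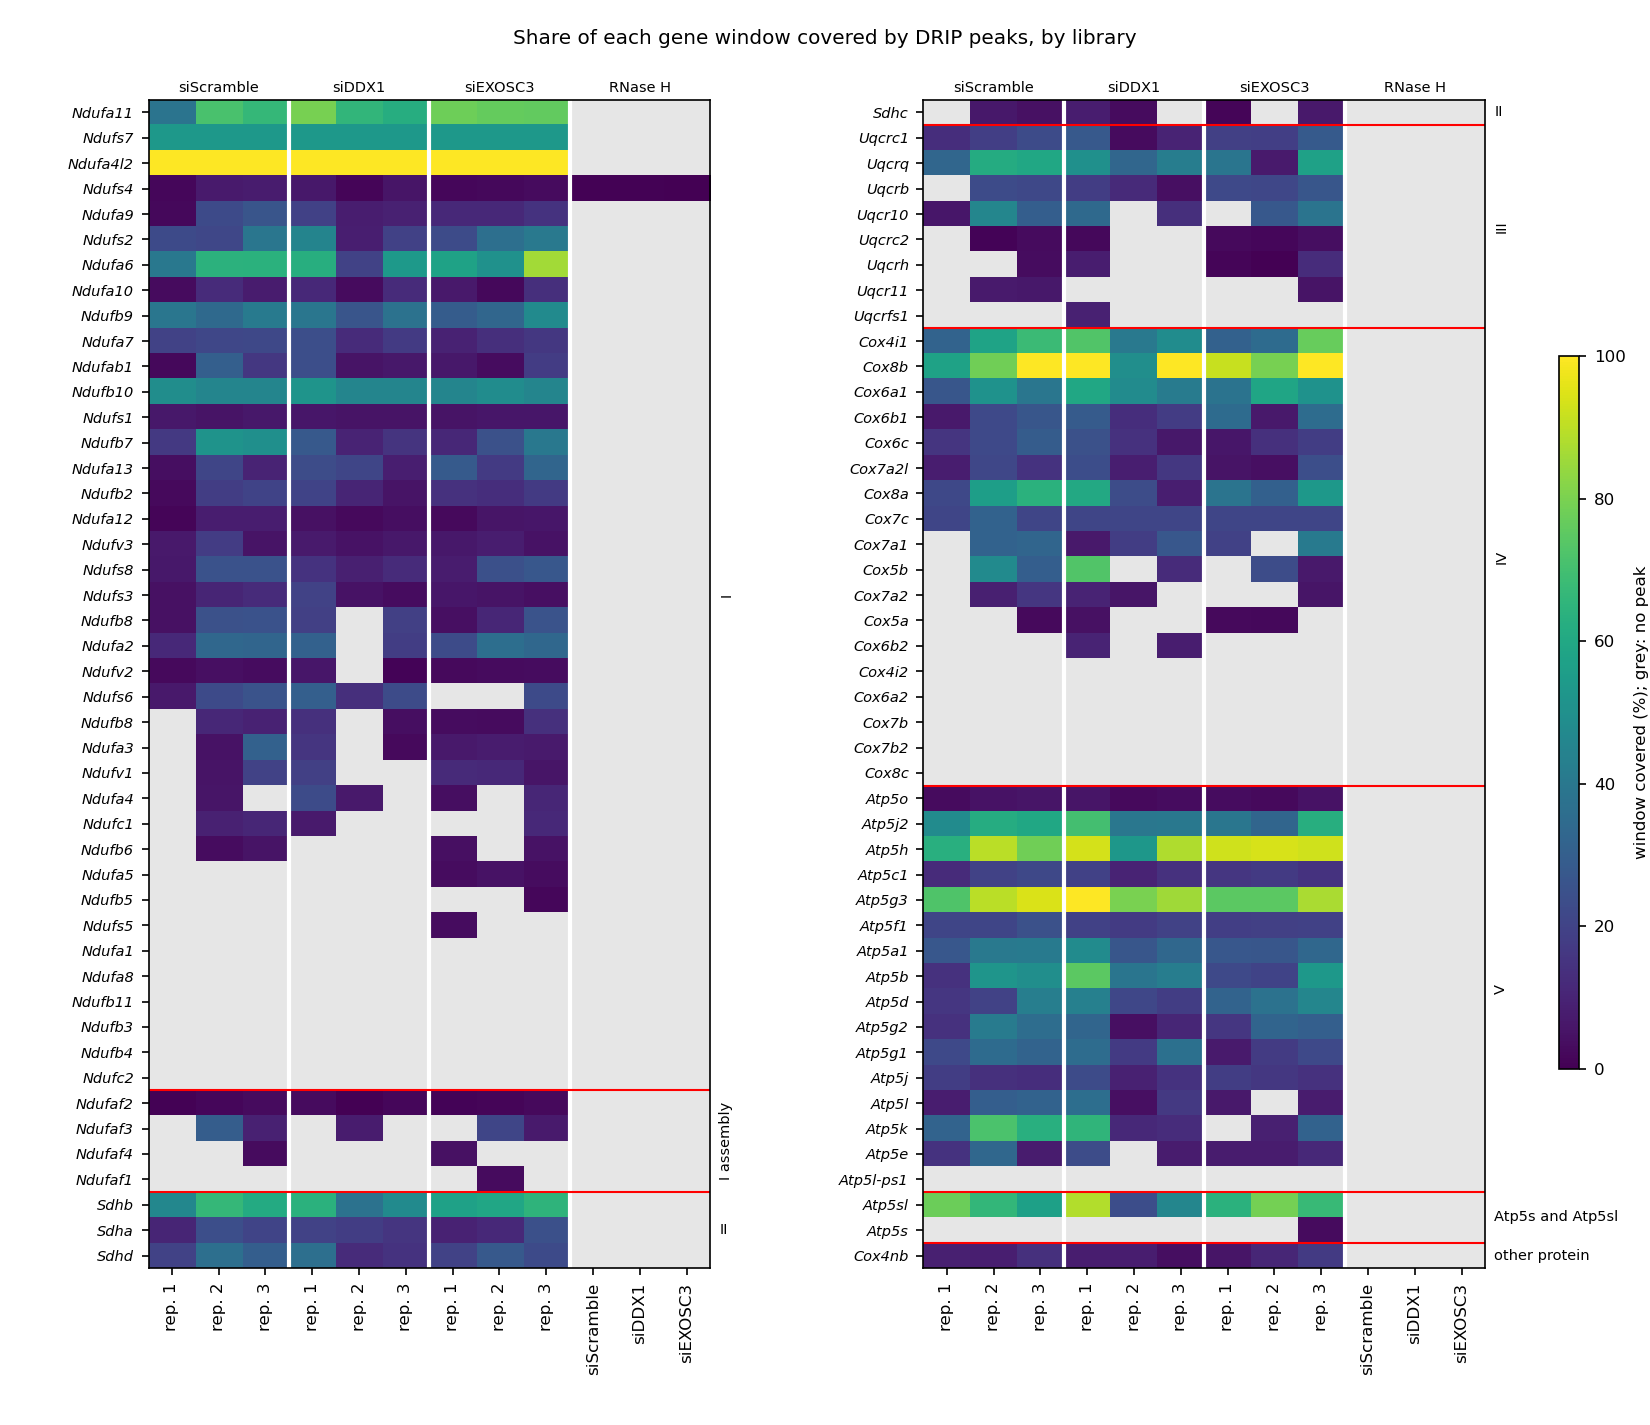
Percent of each gene window covered by peaks (colour, 0 to 100) for the 92 genes (rows, ordered within complexes by the number of untreated libraries with a peak) in 9 untreated and 3 RNase H libraries (columns). Grey marks the absence of a peak, and red lines part the complexes. Ndufa4l2 is covered over 100% of its window in all 9 untreated libraries, and Ndufs4 is the 1 gene with a peak after RNase H.

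Of each complex the gene nearest its median length, among those covered in all 9 libraries, is given library by library. This choice leaves out genes with fewer calls, and the genes shown are covered more than the median gene of their complex, except that of complex V. Ndufa13, an accessory subunit of complex I (8.37 kb), had 388, 2182 and 1033 covered bases in the libraries labelled siScramble, 2411, 2155 and 861 in siDDX1 and 2920, 1763 and 3363 in siEXOSC3. Its 3 groups overlapped, and the lowest value came from siScramble replicate 1, the library with the fewest peaks. Sdhb, the iron-sulfur subunit of complex II (chr4:140517118-140535108, 18.0 kb), had 9255, 13340 and 12235 bases in siScramble, 12798, 7516 and 9554 in siDDX1 and 11438, 11853 and 13013 in siEXOSC3, the highest mean of all members (11222 ± 2001, SD, n = 9). Sdhb held 3 separate regions called in 9 of 9 libraries, of which the first began 55 bases inside the gene and 1 lay in an intron. Uqcrq of complex III (2.91 kb) ranged from 353 to 3014 bases with a median of 2075, Cox6a1 of complex IV (3.34 kb) from 1426 to 3188 with a median of 2585, and Atp5d, the delta subunit of ATP synthase (7.19 kb), from 1466 to 4232 with a median of 2915. In each of these 5 genes the values of the 3 groups overlapped.

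Members had a peak more often than all protein-coding genes in every length class. Among genes under 2.5 kb, 11 of 16 members (68.8%) had a peak in at least 5 of 9 untreated libraries, against 11.6% of all genes of that length. From 2.5 to 5 kb the shares were 78.6% and 33.2%, from 5 to 10 kb 68.8% and 40.7%, from 10 to 20 kb 70.6% and 46.6%, and from 20 to 50 kb 100% of 9 members and 48.8%. Over 50 kb, 3 of 4 members and 44.8% of all genes were covered. The class under 2.5 kb holds 1198 olfactory, vomeronasal and trace amine receptor genes, 32.1% of its genes, of which 0 reached 5 libraries. Without them 17.1% of its genes did. Transcript levels were not measured in these libraries, and their part in the shares was not tested. Across the 92 members, Spearman's rho of gene length with mean covered bases was 0.23 and with the number of libraries with a peak 0.22. Across all genes the values were 0.25 and 0.24. With the percent of the window covered, rho was −0.23 across members and 0.12 across all genes. Among genes with a peak in any untreated library, rho of length was 0.22 with covered bases, 0.21 with the number of libraries and −0.40 with the percent covered across 80 members, and 0.05, −0.03 and −0.52 across 11156 genes. Genes of a library share its depth, and these correlations across genes are given as a description.

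**Figure D3:**
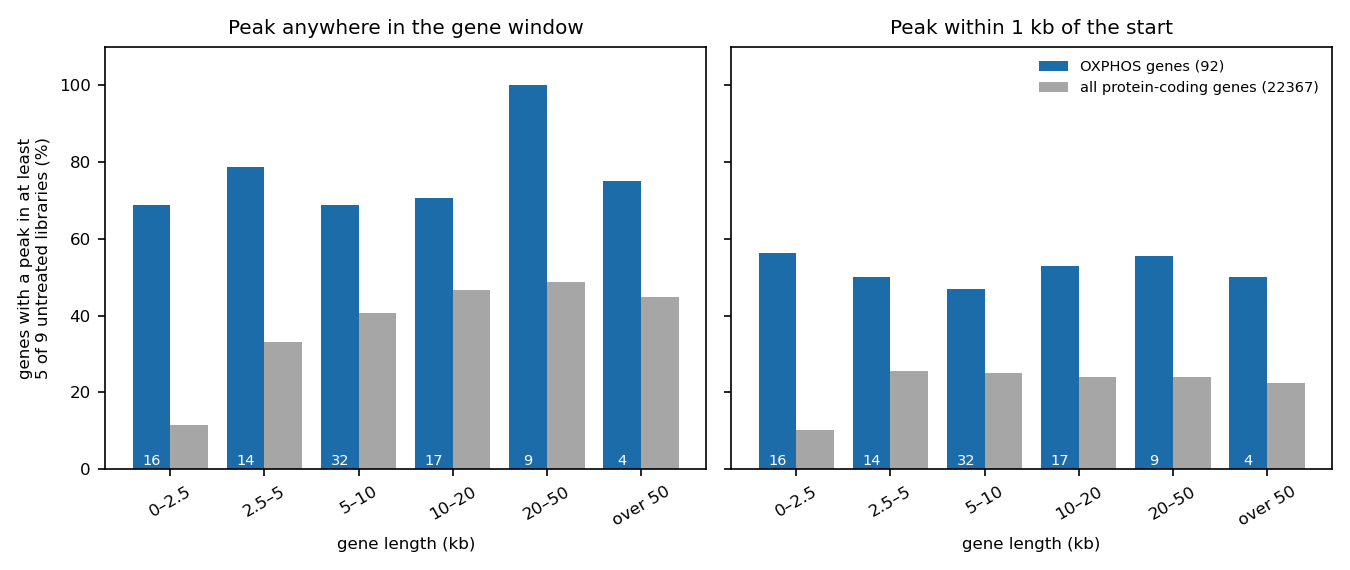
Percent of OXPHOS genes (blue, number of genes at the foot of each bar) and of all protein-coding genes (grey) with a peak in at least 5 of 9 untreated libraries, by gene length in kb, for the whole gene window (left) and within 1 kb of the start (right). The blue bars lie above the grey bars in each class, from 68.8% against 11.6% in the shortest class on the left.

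The 5 longest members were mostly covered and the 5 shortest mostly not. Of the members under 2.5 kb at large, 11 of 16 (68.8%) were covered in at least 5 of 9 untreated libraries. The 5 longest were Atp5o (OSCP of ATP synthase, annotated over 247 kb), the assembly factor gene Ndufaf2 (106 kb), Cox7b2 (105 kb), Ndufs4 (100 kb) and Ndufa10 (34.9 kb). Atp5o had 5844 to 14528 covered bases (median 8450) and 4 regions in 9 of 9 libraries, but its window holds the starts of Cryzl1, Donson and Itsn1, and 3 of the 4 regions lay over Cryzl1, in introns of Atp5o. The remaining region, chr16:91926492-91929024, lay 2908 bases from the annotated Atp5o start and over an exon. Ndufaf2 had 406 to 3325 bases (median 1773) and Ndufa10, an accessory subunit, 752 to 4955 (median 2796), while Cox7b2 had 0 in every library. The 5 shortest were Atp5l-ps1 (0.312 kb), Cox6a2 (0.931 kb), Atp5k (1.21 kb), Cox8c (1.23 kb) and Cox6b2 (1.30 kb). Of these, Atp5k, the e subunit of ATP synthase, was covered in 8 of 9 libraries, Cox6b2 in 2, and the rest in 0.

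Coverage was highest at the 5′ ends. In the 9 untreated libraries, peaks covered 30.0% ± 7.40 (SD, n = 9) of the first kb of the members and 25.1% ± 5.90 of the kb before it, against 13.1% ± 3.22 and 10.7% ± 2.35 for all genes. The last kb was covered over 20.7% ± 5.06 and the kb after the end over 19.0% ± 5.37, against 10.9% ± 2.2 and 9.40% ± 1.87. The body between was covered over 7.41% ± 2.4 in members and 2.42% ± 0.684 in all genes. At the annotated start itself 34.2% of members lay under a peak (SD 7.61), and 3 kb upstream 6.88% did (SD 2.17). The same values for all genes were 13.2% (SD 3.20) and 3.69% (SD 0.837). A peak within 1 kb of the start was called in at least 5 of 9 libraries for 47 members (51.1%) and 21.7% of all genes, and within 1 kb of the end for 36 members (39.1%) and 18.4%. No peak at the start in any untreated library was found for 25 of the 92 members and for 14750 of all 22367 genes. Of these 25, Ndufa12, Ndufa13, Ndufs7, Ndufv3 and Cox6b1 had a peak elsewhere in the window in all 9 libraries.

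**Figure D4:**
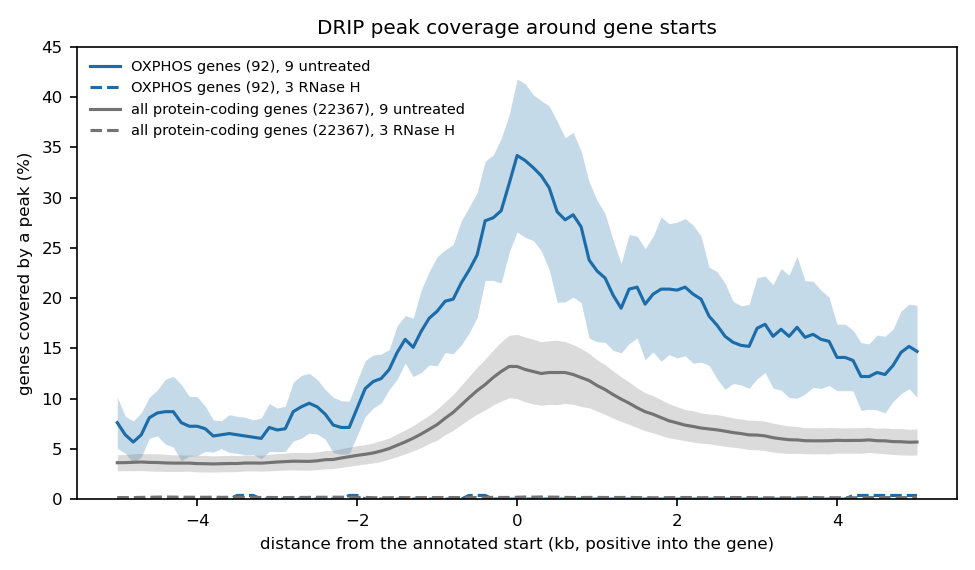
Percent of OXPHOS genes (blue) and of all protein-coding genes (grey) under a peak at each distance from the annotated start, in kb, positive into the gene. Lines are means of 9 untreated libraries with the SD shaded, and dashed lines are means of 3 RNase H libraries. The blue line peaks at the start, at 34.2%, and the grey line at 13.2%.

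The peaks of the members were called in 315 separate regions, counted per gene, of which 53 were called in 9 of 9 untreated libraries and 110 in 1 of 9. The regions in all 9 had a median width of 3341 bases and those in 1 of 9 a median of 330. Of the 53 regions, 29 spanned the start of the member, 49 overlapped at least 1 of its exons and 4 lay in its introns. Another protein-coding gene was overlapped by 28 of them. Peaks carry no strand, so a hybrid of the member and a hybrid of its neighbour cannot be told apart there. The window of 36 members holds the start of another protein-coding gene. Of these 36, 20 were covered in all 9 libraries, as were 28 of the other 56. The overlaps of regions and the starts within windows were not counted over all genes, so they describe the members alone. A start of an opposite-strand gene lay within 1 kb upstream for 23 members (25.0%) and for 7.15% of all genes. The left edge of 71.7% and the right edge of 64.2% of the 53 regions lay within 10 bases of a cut site of the 5 enzymes, against 3.39% of the positions in the member windows. Of the regions called in 1 of 9, 27.3% had a left edge and 28.2% a right edge at a cut site.

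The 8 members with the highest fold enrichment, as the authors' peak caller gave it over the local background, were Ndufa4l2 (mean over the 9 untreated libraries 35.3), Ndufb10 (33.8), Cox7c (27.1), Atp5d (26.6), Atp5f1 (26.0), Ndufs7 (18.7), Uqcrq (16.9) and Ndufa6 (16.8). Each value is the highest peak over the gene in a library, and it ranged from 24.0 to 63.7 over the libraries in Ndufa4l2. For 7 of these 8 the region called in all 9 libraries also overlapped a neighbour. Ndufa4l2 shared it with Shmt2, Ndufb10 with the ribosomal protein gene Rps2, Atp5d with Midn, Atp5f1 with Wdr77, Ndufs7 with Gamt and Uqcrq with Gdf9, while Ndufa6 shared its highest region with Fam109b and 1500032L24Rik. Cox7c, a small subunit of complex IV (chr13:86184421-86186509), was the exception. Its peak at chr13:86185672-86186531 had the same edges in 9 of 9 libraries and spanned the start and an exon. The peak was 860 bases wide, on a restriction fragment of 856 bases, and siScramble replicate 2 alone had a second, intronic peak of 422 bases. The fold enrichments of the start peak were 20.2, 35.3 and 34.0 in siScramble, 25.7, 15.6 and 21.8 in siDDX1 and 30.3, 27.3 and 33.4 in siEXOSC3. The width of this peak was equal in the 9 libraries and its enrichment was not. Ndufa4l2 likewise had 4214 covered bases, its whole window, and Ndufs7, which carries an iron-sulfur cluster of complex I, had 5144 in each of the 9 libraries.

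A peak in all 9 untreated libraries was found for 2 of 8 tissue isoforms (25.0%), near the 26.2% of all genes. Of their 7 widely used paralogs 4 (57.1%) had one. No peak in any untreated library was found for 50.0% of the isoforms, 14.3% of the paralogs and 50.1% of all genes. Of the 8 isoforms known from restricted tissues or conditions, Cox4i2, Cox6a2, Cox7b2 and Cox8c had no peak in any library, Cox6b2, known from testis, had a peak in 2 of 9 (333 and 262 bases, both labelled siDDX1), and Cox7a1, known from heart and skeletal muscle, in 7 of 9 (0 to 1572 bases). Cox8b, likewise known from muscle, had 1730 to 3504 bases (median 3212) and Ndufa4l2, known as a hypoxia-induced relative of Ndufa4, 4214 in all 9. The region over Cox8b, chr7:148082808-148087875, filled 1 restriction fragment and also overlapped Psmd13, a proteasome gene, and that over Ndufa4l2 overlapped Shmt2. Of the 7 paralogs, Cox4i1 (2449 to 6069 bases), Cox6a1, Cox6b1 (749 to 3948) and Cox8a (366 to 2849) were covered in 9 of 9 libraries, Cox7a2 (0 to 1037) and Ndufa4 (0 to 2064) in 5, and Cox7b in 0. The isoforms had a median length of 1.68 kb and the paralogs of 5.92 kb.

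The 12 members without a peak in any untreated library were Ndufa1, Ndufa8, Ndufb3, Ndufb4, Ndufb11 and Ndufc2 of complex I, Cox4i2, Cox6a2, Cox7b, Cox7b2 and Cox8c of complex IV, and Atp5l-ps1. Ndufa1, Ndufb11 and Cox7b are the only 3 members on the X chromosome. Of all 932 protein-coding genes of that chromosome, 75.3% had no peak in any untreated library, against 50.1% over the genome. Off the X chromosome 9 of 89 members (10.1%) had none. Extending the window to 5 kb on each side gave a peak to 2 of the 12.

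The promoters of the members, from 250 bases before to 50 after the annotated start, had a median of 56.0% GC and 17 CpG dinucleotides, against 55.0% and 11 for all genes. The motifs of 4 factors known for these genes were searched for on both strands, and promoters of members held each of them more often than promoters at large. The NRF1 letters GCGCATGC were found in 11 members (12%) and 3.30% of all genes, the GABPA letters CCGGAAG in 18 (19.6%) and 10.8%, the YY1 letters AAGATGG in 12 (13%) and 6.73%, and the ERRα letters AAGGTCA in 9 (9.78%) and 3.92%. The YY1 and ERRα letters begin with the bases that end the GABPA letters, so their matches can overlap, and each was counted on its own. Of the 47 members with a peak at the start in at least 5 of 9 libraries, 7 held the NRF1 letters, 11 the GABPA, 8 the YY1 and 7 the ERRα letters. Of the 25 members with none at the start, 2, 4, 0 and 2 did. Over all genes the shares with and without a start peak were 5.18% and 2.28% for NRF1, 19.4% and 6.49% for GABPA, 8.75% and 6.09% for YY1, and 2.91% and 4.45% for ERRα, which ran the other way from the members. The number of CpGs and the number of libraries with a peak at the start had a Spearman's rho of 0.13 across the 92 members and 0.47 across all genes, as a description. A match of letters is not a site of binding, and its part in the peaks was not tested.

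Ndufa6, Ndufa11 and Sdhb held the NRF1 letters and had a peak within 1 kb of the start in 9 of 9 libraries. Their promoters are shown because they carry the pattern, beside that of Cox4i1, covered in 9 of 9 with GABPA letters and shared with Cox4nb, and those of Cox8c, which has the NRF1 letters and no peak, and Ndufa5, whose calls divided the groups and which has none of the 4 motifs. Each is read 5′ to 3′ on the strand of the gene from mm9, with motif matches in capitals: Ndufa6 at chr15:82184672-82184971 (minus strand), Ndufa11 at chr17:56856935-56857234 (plus), Sdhb at chr4:140516868-140517167 (plus), Cox4i1 at chr8:123191940-123192239 (plus), Cox8c at chr12:104137266-104137565 (plus) and Ndufa5 at chr6:24477964-24478263 (minus).
Ndufa6: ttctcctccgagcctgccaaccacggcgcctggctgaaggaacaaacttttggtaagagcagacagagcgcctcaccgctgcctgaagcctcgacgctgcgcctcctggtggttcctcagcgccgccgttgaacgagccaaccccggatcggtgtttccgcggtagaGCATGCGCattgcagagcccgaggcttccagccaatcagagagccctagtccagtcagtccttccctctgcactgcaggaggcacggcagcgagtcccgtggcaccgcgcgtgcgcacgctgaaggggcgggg
Ndufa11: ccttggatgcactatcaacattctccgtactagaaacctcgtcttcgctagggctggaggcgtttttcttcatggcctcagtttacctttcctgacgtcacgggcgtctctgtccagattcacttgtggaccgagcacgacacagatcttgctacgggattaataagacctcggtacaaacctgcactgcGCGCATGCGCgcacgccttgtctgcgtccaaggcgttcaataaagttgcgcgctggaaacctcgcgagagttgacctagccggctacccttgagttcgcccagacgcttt
Sdhb: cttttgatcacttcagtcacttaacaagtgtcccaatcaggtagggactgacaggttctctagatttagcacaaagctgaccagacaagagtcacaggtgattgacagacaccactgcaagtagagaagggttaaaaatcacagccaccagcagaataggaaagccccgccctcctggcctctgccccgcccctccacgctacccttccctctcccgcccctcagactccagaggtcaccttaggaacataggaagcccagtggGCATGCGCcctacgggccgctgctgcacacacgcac
Cox4i1: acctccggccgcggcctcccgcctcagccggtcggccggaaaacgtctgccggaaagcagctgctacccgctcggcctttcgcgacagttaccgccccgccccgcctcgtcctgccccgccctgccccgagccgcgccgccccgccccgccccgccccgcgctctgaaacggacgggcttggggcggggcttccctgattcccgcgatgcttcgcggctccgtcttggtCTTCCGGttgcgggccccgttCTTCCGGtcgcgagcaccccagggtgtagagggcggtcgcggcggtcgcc
Cox8c: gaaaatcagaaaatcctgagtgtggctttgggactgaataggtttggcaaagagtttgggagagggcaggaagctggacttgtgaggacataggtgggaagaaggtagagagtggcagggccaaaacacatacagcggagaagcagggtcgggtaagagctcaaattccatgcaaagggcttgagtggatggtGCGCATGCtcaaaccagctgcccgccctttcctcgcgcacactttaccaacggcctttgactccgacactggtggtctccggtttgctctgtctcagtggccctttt
Ndufa5: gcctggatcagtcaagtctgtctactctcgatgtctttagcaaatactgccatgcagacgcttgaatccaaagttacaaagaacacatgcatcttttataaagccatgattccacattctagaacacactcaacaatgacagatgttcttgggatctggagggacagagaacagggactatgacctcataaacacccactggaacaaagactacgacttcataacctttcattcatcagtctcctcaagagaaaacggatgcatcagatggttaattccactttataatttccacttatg

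Ndufa11 (an accessory subunit of complex I, 3260 to 6730 covered bases) holds overlapping copies on both strands, the first from 60 bases before the start, Ndufa6 a copy 83 bases before it and Sdhb a copy 15 bases after it. The counts of CpG were 25, 27 and 8 in that order. Over Sdhb, the first region called in 9 of 9 libraries began further inside the gene than its copy of the letters. Cox4i1, subunit 4 of cytochrome c oxidase, and Cox4nb start 178 bases apart on opposite strands, and 1 region, chr8:123190876-123192721, covered both starts in 9 of 9 libraries. Cox4nb, which has no part in respiration, had 588 to 2752 covered bases and a start peak in 9 of 9. Ndufa5 has 4 CpGs and 41.0% GC in its promoter, both below the medians of the members.

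Members were lower after RNase H, as were most genes tested. Of the 92 members, 1 (1.09%) had a peak in any RNase H library, against 13.5% of all genes. The share of all genes rose with length, from 1.69% under 2.5 kb, 2.89% from 2.5 to 5 kb and 4.67% from 5 to 10 kb, classes that hold 62 of the members, to 36.0% over 50 kb. On the scale of log2(covered bases + 100), 59 of the 73 members tested were lower after RNase H at an adjusted p under 0.05 (limma over all 12 libraries, Benjamini-Hochberg over 10014 genes) and 0 were higher. Over all genes tested, 73.6% were lower and 3.29% higher. The median log2 difference was −4.11 in members and −3.83 in all genes tested. Genes entered the test through peaks in at least 3 of 12 libraries, so a gene called only in untreated libraries had to be lower, and the 19 members left out had peaks in 0 to 2. The difference reached −6.80 (SE 0.17, adjusted p = 5.27e-11) in Sdhb and −6.57 (SE 0.28, adjusted p = 4.13e-09) in Atp5o. All RNase H values were at 0 in both genes, so the size depends on the 100 bases added and no fold is given. The 14 members that did not pass had peaks in 3 to 7 untreated libraries, among them Ndufa4 (−1.72, SE 1.02, adjusted p = 0.144) and Cox7a2 (−1.52, SE 0.88, adjusted p = 0.133). With 1 RNase H library a group, the spread between digested replicates was not measured. The fit took 1 spread per gene from all 12 libraries, so the SE and adjusted p rest mainly on the untreated replicates.

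The 1 member with a peak after RNase H was Ndufs4, an accessory subunit of complex I (chr13:115078003-115178302, minus strand). In the digested libraries it had 672 covered bases with siScramble, 788 with siDDX1 and 272 with siEXOSC3, against 1935, 7334 and 7858 in the untreated libraries of siScramble, 6615, 1267 and 5877 of siDDX1 and 1713, 2185 and 3092 of siEXOSC3. Each RNase H value lay below all 9 untreated values. The gene had a log2 difference of −2.48 (SE 0.54, adjusted p = 0.00178, limma). The libraries labelled siScramble and siDDX1 each had a peak that began at the same base of an intron, chr13:115171576-115172247 and chr13:115171576-115171900. A region called in 8 of 9 untreated libraries also began there, at a cut site. The library labelled siDDX1 had a second, wider intronic peak at chr13:115172516-115172978. The library labelled siEXOSC3 had its peak elsewhere, 337 bases outside the start. The log2 of the highest fold enrichment differed by −0.04 (adjusted p = 0.864, limma). Ndufs4 is 1 of 4 members over 50 kb.

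The knockdown groups did not differ in covered bases of any member after adjustment. Members with a peak totalled 66.0 ± 8.72 per library labelled siScramble (SD, n = 3), 63.3 ± 7.09 in siDDX1 and 68.7 ± 4.73 in siEXOSC3, and the ranges overlapped. Peaks covered 12.1% ± 3.79 of the summed member windows in siScramble, 10.7% ± 4.13 in siDDX1 and 10.9% ± 2.5 in siEXOSC3. In the moderated F test over the 3 groups (limma with a variance trend, log2(covered bases + 100), Benjamini-Hochberg over 9666 genes with a peak in at least 3 of 9 libraries), 0 of 73 members tested had an adjusted p under 0.05, and 0% of all genes did. An unadjusted p under 0.05 was reached by 1 of the 73 (1.37%), against 4.52% of all genes. An exact permutation test over the 280 ways to form 3 groups of 3 gave an unadjusted p under 0.05 for 2 of 73, Ndufa5 and Atp5f1, and for 3.02% of all genes. The smallest p it allows is 0.00357, reached by 13 of 9666 genes, and no adjusted p fell under 0.05. A single gene at this smallest p could not pass the adjustment, so the permutation test cannot decide on single members. Between pairs of groups 0 members and 0% of genes passed with siDDX1 minus siScramble, with siEXOSC3 minus siScramble and with siEXOSC3 minus siDDX1, and the lowest adjusted p of a member was 1.00, 0.172 and 0.163. The unadjusted p was under 0.05 for 0, 2 and 2 members, against 2.69%, 5.21% and 5.12% of all genes. Without siDDX1 replicate 1 the F test called 47 genes and 0 members. The study instead tested read counts in merged peaks with DESeq2 and reported increased and decreased regions in each depletion. Covered bases are a different measure, and the lists hold no read counts, so that test could not be repeated here. Per the methods of the study the replicates came from separately seeded plates, so the p-values measure the spread between cultures of 1 cell line.

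Ndufa5, an accessory subunit of complex I (chr6:24468666-24478013, minus strand), was the member whose calls divided the groups. It had 0 covered bases in the 3 libraries labelled siScramble and in the 3 labelled siDDX1, and 363, 538 and 371 in those labelled siEXOSC3 (424 ± 98.8, SD, n = 3). A peak in 3 of 3 libraries of 1 group and 0 of 3 of another was seen for 1 of 92 members and 0.970% of all genes. The 3 peaks did not lie at 1 place. Those of replicates 2 and 3, chr6:24477608-24478145 and chr6:24477775-24478145, spanned the start, an exon and the start of Asb15 on the other strand, while that of replicate 1, chr6:24476601-24476963, lay in an intron, 1050 bases from the start. In replicates 1, 2 and 3 the −log10 q was 4.23, 4.11 and 7.02 and the fold enrichment 4.97, 4.89 and 6.43. The log2 difference was 2.37 (SE 0.38) from siScramble and from siDDX1, with an adjusted p of 0.190 in the F test with limma. Ndufa5 entered the test only through its 3 peaks, all in libraries labelled siEXOSC3. Its other values were all 0 and added no spread, so its p-values cannot stand as support for a difference. Without the variance trend the adjusted p was 0.00550, in a fit that called 0.341% of all genes and 1 of 73 members. The exact permutation p was 0.0357, the smallest possible where 3 of 9 libraries are above 0, and 1.00 after adjustment.

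**Figure D5:**
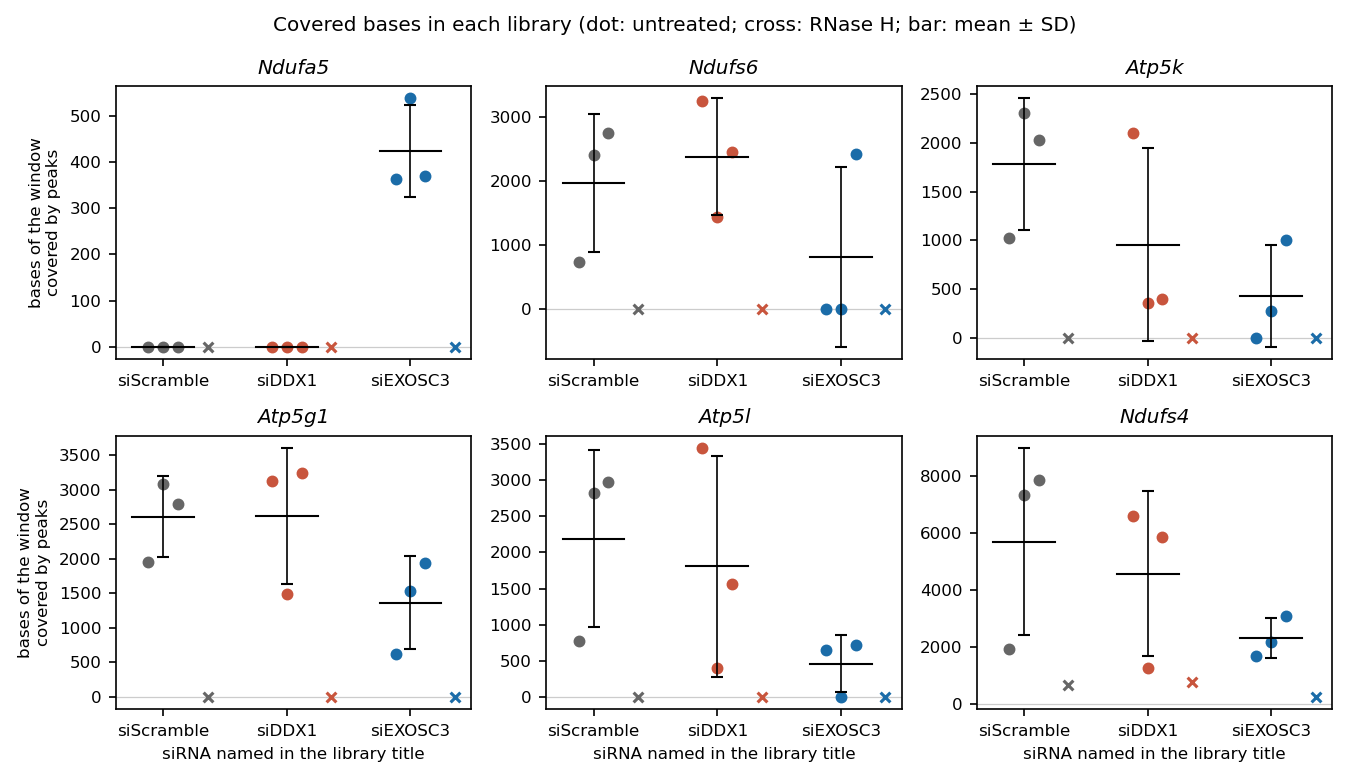
Bases of the gene window covered by peaks in each library for the 5 members of smallest p over the groups and for Ndufs4. Dots are untreated libraries, crosses RNase H libraries, and bars the mean and SD of 3 untreated libraries by the siRNA in the title. Ndufa5 is at 0 in 6 libraries and between 363 and 538 in the 3 labelled siEXOSC3, and in the other five genes the libraries labelled siDDX1 overlap those of both other groups.

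The next 4 members by p were Ndufs6, Atp5k, Atp5g1 and Atp5l, all with lower means in the libraries labelled siEXOSC3 than in those labelled siScramble. Ndufs6, an accessory subunit of complex I, had 734, 2402 and 2747 covered bases in siScramble, 3242, 1428 and 2448 in siDDX1 and 0, 0 and 2422 in siEXOSC3. One library labelled siEXOSC3 thus lay among those of the other groups. Atp5k had 1024, 2301 and 2024 in siScramble, 2097, 364 and 403 in siDDX1 and 0, 281 and 1006 in siEXOSC3, where every value lay below those of siScramble. Atp5g1, a c subunit of ATP synthase, had 1960, 3082 and 2797, then 3129, 1483 and 3245, then 623, 1537 and 1937 in the same order. Atp5l, the g subunit, had 771, 2830 and 2974, then 3445, 403 and 1569, then 654, 0 and 717. In each of these 3 ATP synthase genes the libraries of siEXOSC3 lay below those of siScramble without overlap, and overlapped those of siDDX1. Over all 73 members tested, every library of siEXOSC3 lay below every library of siScramble in 5 (6.85%), Atp5g1, Ndufa7, Atp5f1, Atp5k and Atp5l, against 4.10% of all genes tested. Every one lay above in 3 (4.11%), Atp5h, Ndufa11 and Ndufa5, against 7.40%. Atp5h, the d subunit of ATP synthase, had 3966, 5636 and 4909 bases in siScramble and 5831, 5886 and 5822 in siEXOSC3, so the genes of complex V did not lie on one side. For Ndufs6, Atp5k, Atp5g1 and Atp5l the unadjusted p over the groups was 0.0841, 0.125, 0.126 and 0.132, and the adjusted p 0.932 in each (limma). In Atp5f1, the b subunit, the permutation p rested on 4033, 4048 and 4795 bases in siScramble against 3384 to 3858 in the other groups, with an adjusted p of 0.932 (limma).

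The pathway has further genes outside the naming rule. Of 8 further respiratory chain genes and carriers, Cyc1 (cytochrome c1, 4412 covered bases on average) and Cycs (cytochrome c, 1091) had a peak in 9 of 9 untreated libraries, and 3 of 5 tested were lower after RNase H. Of 24 assembly factors, 8 had a peak in 9 of 9, 12 of 21 tested were lower and 1, Lyrm7, was higher (log2 difference 2.34, adjusted p = 0.0450, limma). Of 15 regulators of nuclear respiratory genes and of mitochondrial DNA expression, 10 had a peak in 9 of 9 and 12 of 12 tested were lower. Over all genes 26.2% had a peak in 9 of 9, and of those tested 73.6% were lower, where a gene called only in untreated libraries had to be lower. Among the regulators, Esrra (7529 covered bases), Yy1 (6054) and Pprc1 (14018) were covered in all 9 libraries, and Ppargc1a, Tfb1m and Mterf in 0. No gene of these lists differed between the groups at an adjusted p under 0.05 (limma F test), and 2 had an unadjusted p under 0.05, Gpd2 and Tmem70.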

How the data were processed

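DRIP-seq peak lists of 12 libraries (9 untreated, 3 digested with RNase H) were used. The 1 input was not analysed here. Per the labels, the authors aligned reads with Bowtie2 2.4.4 to mm9 and called peaks per library with MACS2 2.2.6 against the input. SAMtools, DESeq2 and HOMER 4.11 are also listed in the submitters' processing notes. The deposited lists give each peak's fold enrichment as a linear ratio and its −log10 q as the caller wrote them. They hold no read counts, so interval estimates that need depth were not made.

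From these lists the bases of each gene window under peaks were computed for all protein-coding genes (mm9, GENCODE vM1) with Python 3.11.15, numpy 2.4.6 and scipy 1.17.1. Values were tested as log2(covered bases + 100) with limma 3.58.1 in R 4.3.3, on genes with a peak in at least 3 libraries. A variance trend was added after values shuffled within genes gave calls without it; both fits are given. Fits were tested on simulated data. Members, lists and tests were chosen with earlier results of these data known. Genes named were, by a rule, the 5 members of smallest p, those called in all libraries of a group and none of another, the 8 of highest fold enrichment, the 5 longest and shortest, tissue isoforms with paralogs, members with a peak after RNase H or with none in untreated libraries, the member nearest the median length of each complex, those with the NRF1 letters and a start peak in 9 of 9, and Cox4nb. Other genes were named after their values were seen. Marker genes and lists of the pathway were fixed by symbol. Of 30 assembly factors 24 and of 16 regulators 15 were found in the annotation. Alternatives covered the peaks, window, pseudocount, filter, measure, pairing and left-out libraries.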

Additional observations from a re-analysis of the deposited data

How the results depend on the processing

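No member differed between the groups (limma F test) under 19 of 20 alternatives, nor between pairs of groups under 18 of 19. The exception in each was the fit without the variance trend, added after seeing the data, with 1 member, Ndufa5. Its adjusted p was 0.00550 there and 0.0706 to 1.00 under the other alternatives that tested it. The alternatives for the groups include the exact permutation test, whose smallest p is too large for a single gene to pass the adjustment. Members lower after RNase H numbered 50 to 66 under 21 alternatives, against 59; leaving out each RNase H library was also added after seeing the data. With peaks of −log10 q of at least 5, members covered in 9 of 9 untreated libraries fell from 48 to 31 and members covered in none rose from 12 to 19, and Ndufs4 was no longer lower after RNase H at the threshold (−2.23, adjusted p = 0.0976). Over all genes the F test called 7 with the same number of peaks in each library, 47 without siDDX1 replicate 1 and 33 without the variance trend, against 0, and 0, 0 and 1 of these were members. Extending windows to 5 kb moved the median covered length from 1240 to 1896 bases. Leaving out 1 library in turn gave 48 to 52 members covered in all, 12 to 14 in none, a median of 1134 to 1354 bases, and 43 to 47 with a start peak in at least 5 libraries. With the replicate number as a block (replicate block) 0 members passed. Same-numbered libraries did not deviate together, with correlations of their deviations from group means of −0.17 to 0.20, so the numbers were not taken as pairs. The covered length cannot show a change of signal where a restriction fragment is filled in every library. Read depth was not measured here and its part in the calls was not tested; 2 libraries (siScramble replicate 1 and siDDX1 replicate 2) held the fewest peaks.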
